A study of Mus musculus with 24 samples.

Results

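Clusters of H3K27ac peaks that rank among the strongest in all 3 kinds of mouse fibroblast of this study were described here. H3K27ac, the acetylation of histone H3 at lysine 27, marks active enhancers and promoters. The members were chosen by measured values: in each wild-type (WT) H3K27ac list, peak summits at most 12500 bp apart were stitched into clusters, the clusters were ranked by the sum of the −log10 p-values of their summits, and the 1000 highest were kept. A cluster of mouse embryonic fibroblasts (MEFs) was a member if it overlapped a top 1000 cluster of both other types by at least 1 bp. The rule found 473 shared clusters among the 1000 top clusters and 18313 clusters of the MEF list. Of the other 527 top MEF clusters, 263 were in the top 1000 of 1 other type and 264 of neither.

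The MEFs came from embryos of days 10 to 13 (strain label C57BL/6), the MMTV-CAFs were cancer-associated fibroblasts of breast tumours from MMTV-PyMT mice (FVB/NJ), which carry a viral oncogene driven by a mammary tumour virus promoter, and the wound fibroblasts were taken from dorsal skin on day 10 after wounding (C57BL/6). Overexpressed E6 and E7 of a papillomavirus immortalised every line, controls included. SG cells carried a CRISPR/Cas9 deletion of Prrx1 made with a guide RNA. The labels name SgNS as the WT control, and for MEFs they also name WT embryos, without saying which of these the WT MEF lists come from. KI marks MEFs only and was read, from the methods of the study, as the knock-in line 129S-Prrx1tm1Jfm/Mmmh, backcrossed to C57BL/6, which carries LacZ in the homeodomain part of Prrx1. KI is thus an insertion and SG a deletion, and the lists of both are called mutant here. Whether a line is a clone or a pool, and how many animals gave it, is not given in the sources used here. Each group has 1 peak list for a mark, 17 lists in all, so no difference between cell lines has a replicate check, genotype and line cannot be told apart, and no p-value is given.

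A super-enhancer is a stretch of neighbouring enhancers with unusually high acetylation. Such stretches are known to lie near genes that set a cell's identity, transcription factors among them, and factors that define a cell type often bind them together. Prrx1, a paired-type homeodomain protein of mesenchyme, is the factor studied here, and the study asked whether it acts at such clusters and whether they change without it.

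The clusters are not pure enhancers. Of the 473 shared clusters, 362 (76.5%) held the transcription start site (TSS) of a protein-coding gene, against 59.8% of the other top clusters, and 26.5% of their 4345 summits lay within 1 kb of a TSS, against 19.4% in the other top clusters and 32.5% of all 44918 MEF summits. They spanned 12.7 Mb, with a median length of 23.9 kb and 8 summits, while the other top clusters had medians of 18.1 kb and 7 summits. Chromosomes 11 and 17 held 45 shared clusters each (9.51%), against 8.3% and 6.3% of all top clusters. Chromosome X held 2 (0.423%, against 1.2%). Differences between chromosomes were not tested.

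The bases around the strongest Prrx1 sites of these clusters were looked up, which does not show which of them the factor contacts. A Prrx1 summit is the 1-bp point of highest Prrx1 ChIP signal. For each of the 5 shared clusters with the best Prrx1 sites in all 3 types, judged by the weakest of the 3 −log10 p-values, and for the clusters of Prrx1 and Col1a1, the strongest MEF Prrx1 summit follows with 50 bases on each side (mm9, plus strand). The Tead1 cluster held no Prrx1 summit. Capitals mark TAATTA, a core that paired-type homeodomains are known to bind. TAATTA reads the same on both strands.
chr13:51410033-51410133, 93.9 kb from the TSS of S1pr3: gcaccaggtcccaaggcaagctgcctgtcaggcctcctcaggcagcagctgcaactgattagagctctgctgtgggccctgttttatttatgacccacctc
chr3:121280010-121280110, 44.8 kb from the TSS of Slc44a3: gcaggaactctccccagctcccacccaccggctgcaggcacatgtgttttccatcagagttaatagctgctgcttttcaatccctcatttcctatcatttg
chr17:84389886-84389986, 144 kb from the TSS of Haao: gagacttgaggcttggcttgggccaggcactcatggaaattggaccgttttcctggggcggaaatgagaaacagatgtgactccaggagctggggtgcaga
chr10:128216641-128216741, 11.3 kb from the TSS of Mmp19: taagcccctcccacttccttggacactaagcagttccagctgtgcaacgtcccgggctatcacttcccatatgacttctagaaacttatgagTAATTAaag
chr5:112319922-112320022, 310 kb from the TSS of C130026L21Rik: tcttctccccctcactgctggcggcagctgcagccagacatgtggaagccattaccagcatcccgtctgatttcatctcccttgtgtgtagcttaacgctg
chr1:165231387-165231487, in the Prrx1 gene body, 12.1 kb from its TSS: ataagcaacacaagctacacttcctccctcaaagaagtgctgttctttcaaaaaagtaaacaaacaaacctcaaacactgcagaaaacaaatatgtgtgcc
chr11:94784132-94784232, between genes, 13.4 kb from the TSS of Col1a1: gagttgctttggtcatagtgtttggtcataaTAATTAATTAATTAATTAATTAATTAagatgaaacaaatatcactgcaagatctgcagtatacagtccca

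TAATTA was in 1 of the 5 best common sites (Mmp19), at 6 overlapping positions (3 without overlap) in 1 run at the Col1a1 site, and not in the window at the Prrx1 gene. In the S1pr3 cluster the MMTV-CAF and wound Prrx1 summits lay 20 and 65 bp from the MEF summit, and the −log10 p-values were 44.1 in MEFs, 82.1 in MMTV-CAFs and 28.0 in wound fibroblasts. In the other 4 of these clusters the MMTV-CAF and wound summits lay 5 to 49 bp away. At the Prrx1 gene the nearest MMTV-CAF and wound summits were 7319 and 13617 bp from this MEF summit. The other MEF summits of the cluster were not compared. At Col1a1 the wound summit lay 49 bp away and the nearest MMTV-CAF summit 6281 bp away.

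Over all Prrx1 summits, those inside shared clusters held TAATTA within 100 bp less often than those elsewhere. In MEFs it was in 36 of 82 summits inside shared clusters (43.9%, Wilson 95% interval 33.7 to 54.7%) and in 69.8% of 2966 outside. In MMTV-CAFs the shares were 24.2% of 571 and 36.3% of 7429, and in wound fibroblasts 24.0% of 417 and 43.3% of 5281, with no overlap of the intervals in any type. As background, windows of the same length around H3K27ac summits held it at 2.41% of all MEF summits and 2.0% of those in shared clusters. The AP-1 site TGANTCA, searched on both strands like TAATTA, was in 20.7% (13.4 to 30.7%) of the MEF Prrx1 summits inside shared clusters and 12.7% (11.5 to 13.9%) outside, and in 3.59% of the acetylation windows there. In MMTV-CAFs and wound fibroblasts its shares inside and outside were 20.5% and 18.1%, and 15.6% and 12.8%. Intervals cover counting error over summits and not differences between cultures.

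Around the H3K27ac summits themselves, within 250 bp, the shared clusters had a median GC content of 51.3%, against 47.1% in the other top clusters and 49.3% in the whole MEF list. TAATTA was in 7.39% of these wider windows in shared clusters, 9.37% in the other top clusters and 7.80% of all. TGANTCA was in 15.8%, 19.7% and 17.9%, and GGAATG, the core that TEAD factors bind (both strands), in 26.7%, 27.1% and 26.1%.

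The cluster whose lowest rank was the best over the 3 WT lists lay outside coding genes. It spanned chr15:85464741-85519511, 46.5 kb from Ppara and 17.5 kb from the microRNA gene Mirlet7c-2, and ranked 3 in MEFs, 1 in MMTV-CAFs and 1 in wound fibroblasts. A cluster over Ergic1, a carrier protein between the endoplasmic reticulum and the Golgi, ranked 7, 11 and 8 in the same order. A cluster inside Vmp1, a membrane protein of autophagy, ranked 2, 13 and 6 and lay 20.3 kb from Mir21. The distances to Mirlet7c-2 and Mir21 were looked up after the values were seen. The others among the 10 best held Hoxb2 to Hoxb6 (ranks 11, 25 and 2), the clock gene Per1 with Vamp2 (10, 31 and 13), Hoxa2 to Hoxa9 (1, 39 and 17), the zinc finger gene Zbtb22 with the histone chaperone gene Daxx (47, 33 and 32), Trim8 (50, 19 and 23), an intronic stretch of Dlgap1 (15, 55 and 33) and the microRNA genes Mir29a and Mir29b-1 (24, 65 and 3). These WT ranks chose the members and are a description.

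At the edge of the rule, the 3 last members had lowest ranks of 992 (Angptl6 and Ppan), 996 (Ddx55, Rilpl1 and Tmed2) and 997 (Abl1). The 3 clusters that just missed it had lowest ranks of 1002 (Trim3), 1005 (near Acot11) and 1009 (Nacc2). The summed −log10 p at rank 1000 was 172 in MEFs, 217 in MMTV-CAFs and 116 in wound fibroblasts, and the next cluster had the same value to 3 digits in each list. Membership near the edge is therefore a matter of small differences, with 59 members in the last 100 ranks before it and 22 other clusters in the first 100 after it.

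**Figure D1:**
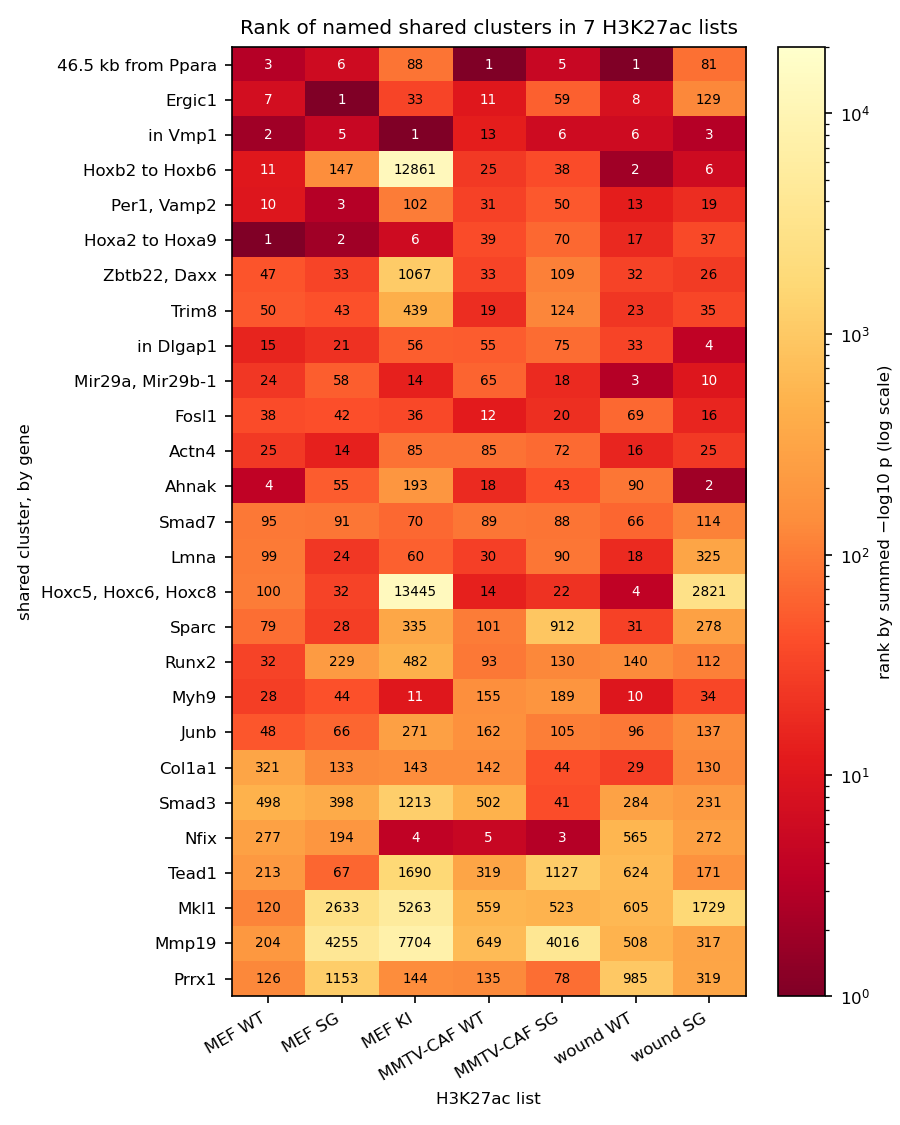
Rank of named shared clusters (vertical axis, by gene) in the 7 H3K27ac lists (horizontal axis), where 1 is the highest summed −log10 p and the colour is on a log scale. The Vmp1 cluster stays within the first 13 ranks in every list, while the Hoxb and Hoxc clusters drop to ranks 12861 and 13445 in MEF KI.

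The shared clusters held the TSS of 739 coding genes, of which 61 were transcription factor genes, of 665 annotated, by a list of 34 families matched to gene symbols. That is 8.25% of their genes, against 6.72% of the 491 genes of the other top clusters and 2.99% of the 22232 annotated coding genes. By cluster, 48 of 473 (10.1%, 7.74 to 13.2%) held a transcription factor TSS, against 6.07% (4.33 to 8.45%) of the other top clusters and 8% of all 1000. The difference was 4.08 percentage points (95% interval 0.694 to 7.59). Its interval covered 0 for the top 500 (1.81, -2.98 to 7.07), for ranks by number of summits (2.83, -0.22 to 6.21) and for lists of equal size (2.80, -0.486 to 6.26). It fell to 0.0649 points when summits within 2.5 kb of a TSS were left out before stitching, which by its construction removes most promoters from the clusters.

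Homeobox genes of the Hox type, which record position along the body axis and stay on in adult fibroblasts, gave 15 of the 61, all in 3 clusters. The Hoxa2 to Hoxa9 cluster had 31, 20 and 23 H3K27ac summits in WT MEFs, MMTV-CAFs and wound fibroblasts. The Hoxb2 to Hoxb6 cluster had 18, 22 and 29, and the Hoxc5, Hoxc6 and Hoxc8 cluster had 7, 6 and 9. Of 39 Hox genes annotated, the rest had no TSS in a shared cluster. Neighbours in 1 cluster share its rank, so these are 3 observations and not 15.

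AP-1 and related genes, which answer growth and stress signals, gave 6 of 26 annotated: Fosl1 (WT ranks 38, 12 and 69), Junb (48, 162 and 96), Fosb (446, 210 and 538), Maff (655, 67 and 74), Atf4 (526, 709 and 370) and Mafg (923, 802 and 599), in the order MEF, MMTV-CAF and wound. Nuclear receptors gave 6 of 45, near the share over all factors (61 of 665). Rara, a retinoic acid receptor, ranked 92, 149 and 47, and Nr1d1, a repressor in the clock, ranked 153, 113 and 25. Rarg, Nr2f2, Nr2f6 and Nr4a1 had lowest ranks of 284 to 728.

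TGF-β signalling was represented by Smad7, its inhibitor, at ranks 95, 89 and 66, and by Smad3, the factor that carries the signal to DNA, at 498, 502 and 284. TEAD factors, the DNA-binding partners of YAP in the Hippo pathway, gave 2 of 4 annotated, Tead3 (282 in MEFs and 127 in MMTV-CAFs) and Tead1 (213, 319 and 624). Runx2, known from bone and cartilage, ranked 32, 93 and 140. Ets1, known from activated stroma and blood cells, ranked 231, 216 and 190. The NFI genes Nfic and Nfix, Hes1 of the Notch pathway, and Klf3, Klf6 and Sp2 of the KLF/SP family had lowest ranks of 326 to 745.

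The study's 8 candidate factors and Col1a1 were looked up in the same way. Prrx1, Junb, Nfix, Tead1 and Col1a1 had their TSS in a shared cluster, and Klf4, Fosl2, Cebpb and Klf13 in no top 1000 MEF cluster. The study chose these candidates on these samples, so this is not independent evidence. It took super-enhancers from ROSE2 and assigned genes to them with annotation packages. A TSS between the first and last summit is another measure, so a factor missing here can still have a super-enhancer there. The Prrx1 cluster (chr1:165203939-165250278) ranked 126 in MEFs and 135 in MMTV-CAFs but 985 in wound fibroblasts, close to the edge. Of 7 alternative ways to build the clusters, 5 left the TSS of Prrx1 outside the shared set. The same held for Nfix and Tead1, while Col1a1 was left out by 2 and Junb by 1.

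Genes of the fibroblast's outer and inner skeleton were counted from lists of known pathway genes. Of 37 contractile and cytoskeletal genes, 12 (32.4%) had their TSS in a shared cluster, against 3.32% of all coding genes. Those with the best lowest ranks were Actn4, an actin crosslinker (ranks 25, 85 and 16), Ahnak, a giant membrane scaffold (4, 18 and 90), Lmna, which encodes the nuclear lamins A and C (99, 30 and 18) and Cald1, caldesmon (102, 148 and 81). Myh9, Zyx, Tpm1, Actb, Actg1 and the neighbours S100a4 and S100a6 were among the others. Tpm4 only lay over a shared cluster with its gene body. Of 26 integrin and adhesion genes 6 were inside (Anxa2, Itga5, Pxn, Itga3, Ilk and Lpp).

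Genes of the matrix were counted next, and differences between the gene lists were not tested. Of 19 collagen genes 2 (10.5%, against 3.32% of all coding genes), Col1a1 (ranks 321, 142 and 29) and Col4a2 (374, 353 and 92), had their TSS in a shared cluster, 2 more lay in other top MEF clusters, and 15 in none. Of 34 glycoproteins and proteoglycans 5 were inside, led by Sparc (79 in MEFs and 31 in wound fibroblasts) and Hspg2 (137, 56 and 37). Of 20 proteases and inhibitors 4 were inside, among them Timp2, an inhibitor of metalloproteinases (141, 86 and 143). Of 18 crosslinking and processing genes 1 was inside, the collagen chaperone Serpinh1 (331, 422 and 243), which is 5.56%.

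Among signalling genes, 6 of 39 TGF-β and BMP genes had their TSS in a shared cluster. These were the inhibitors Smad7 and Ski, the mediator Smad3, the corepressor Tgif1, the latency protein Ltbp3 and the BMP target Id3, none of them a ligand or a receptor. Of 37 Wnt and Hippo genes 6 were inside: Tead1, Tead3, Lats2, Amotl2, the YAP target Ankrd1 and Tcf7l2. Of 38 growth factors and receptors 2 were inside, Csf1 (6, 20 and 232) and Nrp2 (515, 416 and 869). Of 24 cytokines and chemokines none was inside, and 4 had their TSS in other top MEF clusters. At 3.32% of all coding genes inside, lists of this size give few or no genes, and nothing is read from these last counts. The lists were chosen with earlier results of these data known, hence the counts are descriptions.

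Annotated microRNA genes lay in 28 shared clusters (5.92%, 4.13 to 8.42%) and in 2.09% (1.17 to 3.70%) of the other top clusters. Of 36 such genes, 18 had a Mir name, in 14 clusters, and 18 were unnamed predictions. RefSeq (GRCm38.p6) gave a mature sequence for 15 of the 16 named genes looked up. MicroRNAs pair with their targets through the seed, bases 2 to 8, shown in capitals for the better known arms of better known genes in high clusters. Mir1934, in a cluster with a lowest rank of 305, is left out.
miR-29a-3p: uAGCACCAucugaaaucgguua
miR-29b-3p: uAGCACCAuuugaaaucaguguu
miR-10a-5p: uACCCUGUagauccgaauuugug
miR-99b-5p: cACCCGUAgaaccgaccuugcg
miR-125a-5p: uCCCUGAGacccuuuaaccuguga
miR-196b-5p: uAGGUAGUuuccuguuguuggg
miR-199a-5p: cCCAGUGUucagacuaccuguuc
miR-214-3p: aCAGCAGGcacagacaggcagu

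The miR-29a and miR-29b arms shared the seed AGCACCA, and the other 6 differed from it and from each other. The miR-29 family is known to repress collagen genes. Its cluster, chr6:31009755-31076021, ranked 24, 65 and 3 in the WT lists and 58, 14, 18 and 10 in MEF SG, MEF KI, MMTV-CAF SG and wound SG. Mir10a lay in the Hoxb cluster and Mir196b in the Hoxa cluster. Mir199a-2 and Mir214, encoded together in an antisense transcript of a dynamin gene, lay in a cluster that ranked 169, 300 and 285, and Mir99b and Mir125a in a cluster that ranked 85, 192 and 347. Mir143 and Mir145, known from smooth muscle, ranked 300, 552 and 39.

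The mutant lists were not used by the rule. Their summits were stitched and ranked in the same way, and a shared cluster took the best rank of any cluster it overlapped. In MEF SG, 422 of 473 shared clusters (89.2%, 86.1 to 91.7%) were in the top 1000, against 51.4% (47.2 to 55.7%) of the other top clusters and 69.3% of all 1000. In MEF KI it was 308 (65.1%, 60.7 to 69.3%), against 37.0% (33.0 to 41.2%) and 50.3%. The median rank of the shared clusters was 336 in MEF WT, 307 in MEF SG and 544 in MEF KI.

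Shared clusters also ranked higher in MEF WT to begin with, hence the shares were compared within bins of 250 ranks. In MEF SG the shares from the highest to the lowest bin were 96.1%, 88.9%, 84.0% and 77.8% for shared clusters and 71.0%, 55.7%, 50.6% and 42.2% for the others, and no pair of intervals overlapped. In MEF KI they were 81.2%, 68.1%, 47.9% and 38.1% against 58.0%, 41.7%, 32.7% and 29.9%. Here the intervals overlapped in the lower 2 bins. With the bins weighted by their number of shared clusters the differences were 30.5 points in MEF SG and 20.5 points in MEF KI. The bins take no account of length. Shared clusters were longer (median 23.9 kb, against 18.1 kb), and a longer interval can overlap more clusters of a mutant list. The part of length was not tested.

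**Figure D2:**
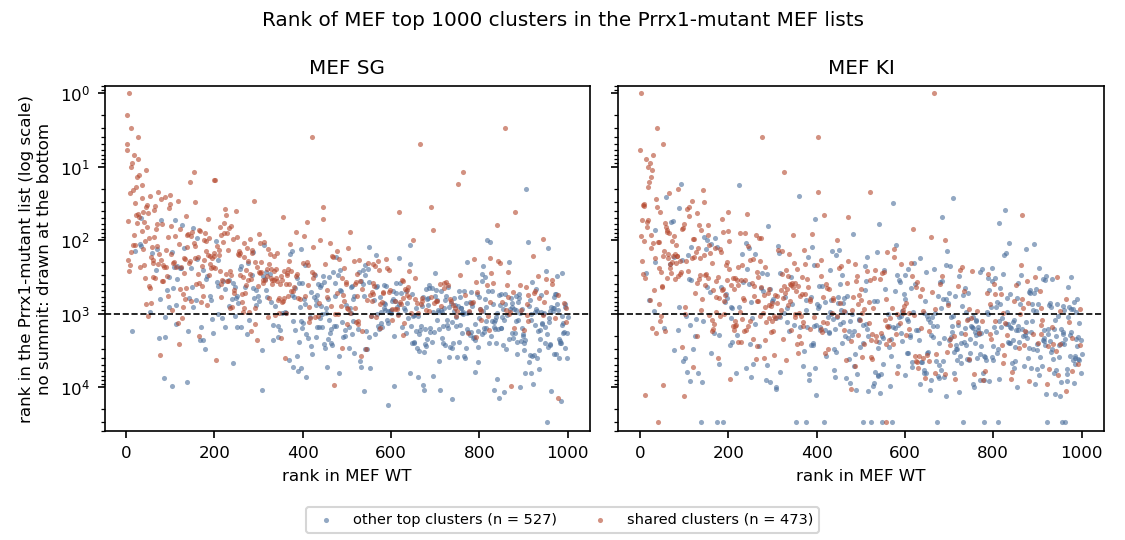
Rank of each MEF top 1000 cluster in MEF WT (horizontal axis) against its rank in MEF SG and MEF KI (vertical axis, log scale, rank 1 at the top), with clusters without any summit there at the bottom. More shared clusters lie above the dashed line at rank 1000 (422 in MEF SG and 308 in MEF KI) than below it.

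In MMTV-CAF SG 382 shared clusters (80.8%, 77.0 to 84.1%) were in the top 1000, against 30.9% of the other top clusters and 54.5% of all. In wound SG it was 395 (83.5%, 79.9 to 86.6%), against 33.0% and 56.9%. These 2 differences follow in part from the rule, since all members and not all other clusters were in the WT top 1000 of these types, and nothing further is read from them.

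**Figure D3:**
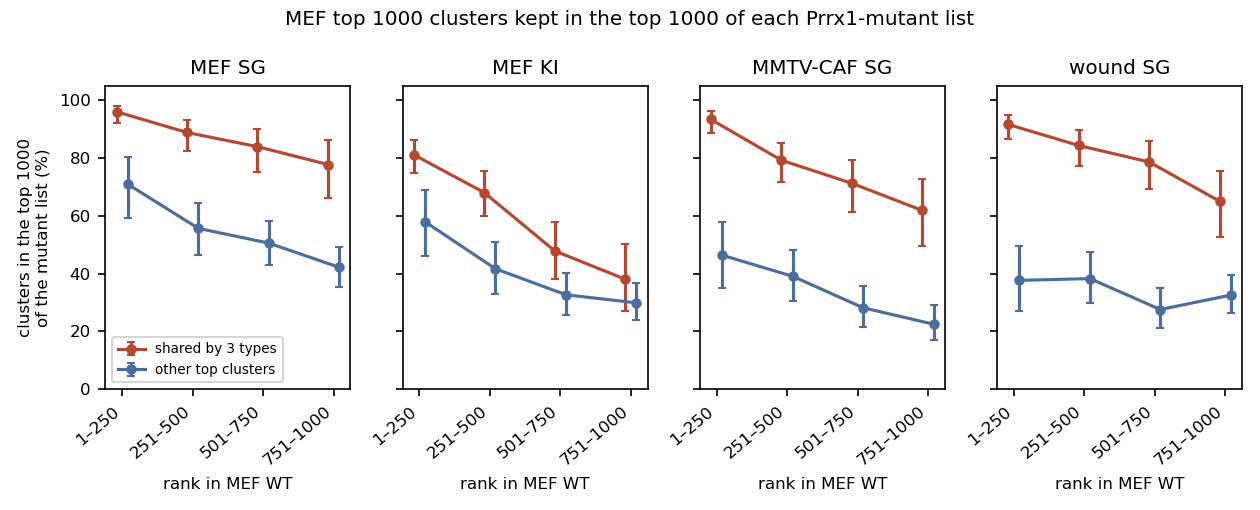
Share of MEF top 1000 clusters (vertical axis, %) found in the top 1000 of each mutant list, by bin of 250 ranks in MEF WT (horizontal axis), for shared clusters and other top clusters with Wilson 95% intervals. The shares of shared clusters fall from 96.1% to 77.8% in MEF SG and from 81.2% to 38.1% in MEF KI.

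Over the 4 mutant lists together, 226 shared clusters (47.8%) were in the top 1000 of all 4, 145 of 3, 71 of 2, 26 of 1 and 5 (1.06%) of none. Of the other top clusters 5.12% were in all 4 and 23% in none, a difference that follows in part from the rule for MMTV-CAFs and wound fibroblasts. The 5 shared clusters in none were those of Atf4, Dido1, Sec14l1, Ifi47 and Ephx1. In the 2 mutant MEF lists, 281 were in the top 1000 of both, 141 were outside in KI only, 27 in SG only and 24 in both. The MEF KI list was also the smallest and weakest, with 29325 summits and a median −log10 p of 11.9, against 33465 to 61603 summits and 15.2 to 21.2 in the other 6 lists. Its part in the KI values was not tested beyond lists cut to equal size, in which the KI difference was 29.0 points.

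Single summits were compared as well. Of the 4345 MEF WT summits in shared clusters, 70.4% had a summit within 500 bp in MEF SG and 52.6% in MEF KI, against 64.7% and 44.3% in the other top clusters and 68.2% and 44.3% over the whole MEF list.

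The 3 Hox clusters differed from each other in the mutant lists. The Hoxa cluster ranked 1 in MEF WT, 2 in MEF SG and 6 in MEF KI, and 37 to 70 in the other 2 mutant lists. The Hoxb cluster ranked 11 in MEF WT, 147 in MEF SG and 12861 in MEF KI, where 18 summits with a summed −log10 p of 594 were reduced to 1 summit of 6.87. It went from rank 25 to 38 in MMTV-CAFs and from 2 to 6 in wound fibroblasts. H3K4me3, a mark of active promoters, covered 23196 bases of it in MEF WT, 17004 in MEF SG and 3900 in MEF KI.

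The Hoxc cluster ranked 100 in MEF WT, 32 in MEF SG and 13445 in MEF KI, where 1 summit of 5.29 was left and H3K4me3 went from 24490 bases to 0. In wound fibroblasts it went from rank 4 to 2821 and from 9 summits to 2, while H3K4me3 covered 30849 bases in WT and 35193 in SG. In MMTV-CAFs it stayed at ranks 14 and 22. Position along the body axis is what Hox clusters record, and line and genotype cannot be told apart at these loci.

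Ptgs1, the gene of cyclooxygenase 1, was the only cluster within the first 100 MEF ranks without any summit in MEF KI. Its cluster, chr2:36069945-36135023, had 18 summits in MEF WT (rank 41), 14 in MEF SG (rank 218) and 0 in MEF KI, while the MMTV-CAF lists had 18 and 20 and the wound lists 17 and 12. H3K4me3 covered 3306, 2315 and 322 bases in the MEF lists. It held 2 Prrx1 summits in MEFs, 5 in MMTV-CAFs and 2 in wound fibroblasts. A cluster inside Gas7, a growth arrest gene, also had 0 summits in MEF KI, from 10 in MEF WT and 10 in MEF SG. Both were picked for these values.

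The shared clusters with the best MEF WT rank that left the top 1000 in both mutant MEF lists were those of Mkl1, Ubtf with Atxn7l3, Mmp19, Setd5 and Sh3pxd2a. Mkl1 encodes MRTF-A, the coactivator of SRF that links actin to transcription. Its cluster went from rank 120 in MEF WT to 2633 in MEF SG and 5263 in MEF KI, and from 605 to 1729 in wound fibroblasts, but from 559 to 523 in MMTV-CAFs. In wound fibroblasts the summed −log10 p over its interval was 137 in WT and 174 in SG, so the rank fell while the sum did not.

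The Mmp19 cluster, over a matrix metalloproteinase gene, went from 204 in MEF WT to 4255 in MEF SG and 7704 in MEF KI and from 649 to 4016 in MMTV-CAFs, while in wound fibroblasts it went from 508 to 317. The Mmp19 cluster is also 1 of the 5 with the best common Prrx1 sites, listed above. Sh3pxd2a, which encodes an invadopodia scaffold (TKS5), went from 360 to 4056 and 1989 in MEFs and from 299 to 4229 in wound fibroblasts, but from 265 to 261 in MMTV-CAFs. In wound fibroblasts the summed −log10 p over its interval was 135 in WT and 141 in SG, so only the rank fell. Setd5 and Ubtf were closer to the edge, with mutant MEF ranks of 1112 to 2151.

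Clusters that were in the top 1000 of a single mutant list included those of Pdlim2 (MEF WT rank 37, then 18 in MEF SG, 1861 in MEF KI, 1487 in MMTV-CAF SG and 1090 in wound SG) and Mmp14, the membrane-anchored collagenase (330, then 399, 4326, 1078 and 1825 in the same order). Cdh3, encoding P-cadherin, ranked 304 and then 109, 1087, 5019 and 1161. In WT MMTV-CAFs and WT wound fibroblasts, Pdlim2 ranked 635 and 89, Mmp14 437 and 552, and Cdh3 920 and 291. From WT to SG, the summed −log10 p over the Pdlim2 interval did not fall in MMTV-CAFs. It fell in wound fibroblasts, and over the Mmp14 and Cdh3 intervals it fell in both types.

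Of the 61 transcription factor genes, 29 were in clusters that stayed in the top 1000 of all 4 mutant lists. The 29 included Fosl1, Junb, Smad7, Runx2, Ets1, Nfix and Hoxa2 to Hoxa9, which lie in the same cluster. Another 24 were in clusters that stayed in the top 1000 of 3 lists. Of all shared clusters, 226 (47.8%) were in the top 1000 of all 4 and 145 (30.7%) of 3. Nothing particular to transcription factor genes is read from these counts. By cluster, 45 of 48 (93.8%) were kept in MEF SG and 28 (58.3%, 44.3 to 71.2%) in MEF KI, against 88.7% and 65.9% (61.3 to 70.2%) of the 425 without a transcription factor TSS, and the intervals overlapped in both lists. Tead1 went from 213 in MEF WT to 67 in MEF SG and 1690 in MEF KI, and from 319 to 1127 in MMTV-CAFs, but from 624 to 171 in wound fibroblasts. Smad3 went from 498 to 398 and 1213 in MEFs, from 502 to 41 in MMTV-CAFs and from 284 to 231 in wound fibroblasts. The Nfix cluster, at 277 in MEF WT, ranked 194 in MEF SG and 4 in MEF KI. The rank is that of the best cluster overlapped, and in KI and in the MMTV-CAF lists a neighbouring member over the same gene took the same rank.

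The Prrx1 cluster itself ranked 1153 in MEF SG and 144 in MEF KI, 78 in MMTV-CAF SG and 319 in wound SG. It held 16, 13 and 12 H3K27ac summits in MEF WT, SG and KI, 20 in WT and 21 in SG MMTV-CAFs, and 12 in WT and 10 in SG wound fibroblasts. Acetylation over the gene does not measure its protein, and the lists give no check of the deletion.

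Of the 12 contractile genes in shared clusters, 12 were in the top 1000 of MEF SG, 10 of MEF KI, 11 of MMTV-CAF SG and 11 of wound SG, and 8 in all 4. Over all shared clusters these shares were 89.2%, 65.1%, 80.8% and 83.5%, and 47.8% in all 4, so that nothing particular to these few genes is read from the counts. Zyx, the focal adhesion protein zyxin, ranked 1740 in MEF KI from 56 in MEF WT, and Cald1 1010 from 102. Tpm1, a tropomyosin, ranked 1094 in wound SG from 182, and Actg1 1242 in MMTV-CAF SG from 619. Both collagen genes and all 5 glycoprotein and proteoglycan genes were in the top 1000 of all 4 lists, counts too small to set against that 47.8%. Serpinh1 left it in MMTV-CAF SG (1309) and wound SG (1212), and Nrp2 ranked 8383 in wound SG from 869 in WT. In the other types Nrp2 ranked higher in the mutant lists, at 191 in MEF SG and 261 in MEF KI from 515, and at 45 in MMTV-CAF SG from 416.

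Prrx1 summits were found in 362 of the 473 shared clusters in at least 1 type: 52 in all 3 types, 159 in 2 and 151 in 1, with 111 having none. Summits in all 3 types were near the background, at 11.0% of shared and 8.54% of other top clusters (difference 2.45 points, -1.23 to 6.23, and -0.77 weighted over rank bins), while 23.5% and 38.1% had none. In MMTV-CAFs 305 shared clusters (64.5%, 60.1 to 68.7%) held one, against 45.2% (41.0 to 49.4%) of the other top clusters and 54.3% of all 1000. In wound fibroblasts it was 256 (54.1%, 49.6 to 58.6%), against 35.5% (31.5 to 39.7%) and 44.3%. In MEFs it was only 64 (13.5%, 10.7 to 16.9%), against 18.2% (15.2 to 21.7%) and 16%. The Prrx1 lists hold 8000, 5698 and 3048 summits in this order, so shares are not comparable between types.

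The differences between shared and other top clusters were 19.3 points (13.2 to 25.2) in MMTV-CAFs, 18.6 in wound fibroblasts and -4.69 (-9.18 to -0.127) in MEFs. Weighted over the same rank bins they were 15.0, 13.7 and -10.7. The MEF difference was smaller, with an interval that covered 0, when only Prrx1 summits of −log10 p 5 or more were counted (-2.12, -6.37 to 2.20), with clusters ranked by number of summits (-1.28, -6 to 3.66) and with stitching within 5 kb (-1.92, -5.54 to 2.35). The interval also covered 0 for the top 500 (-3.84, -10.8 to 3.46) and for lists of equal size (-3.89, -8.10 to 0.419). Per Mb, the shared and other clusters held 44.8 and 35.3 summits in MMTV-CAFs, 32.7 and 24.6 in wound fibroblasts and 6.44 and 11.0 in MEFs. All 18313 MEF clusters together held 39.5, 27.2 and 9.1 in this order, between the shared and the other top clusters in each type. Clusters in the top 1000 of MEFs and 1 other type held 44.8, 27.3 and 8.65, so that the MMTV-CAF density was not particular to clusters shared by all 3 types. Membership in the MMTV-CAF and wound top lists is part of the rule, and the Prrx1 lists of those types were made from the same cells.

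Whether a cluster holds a promoter moved with the MEF value. Among clusters with a coding TSS, 9.39% (6.80 to 12.8%) of shared and 10.5% (7.56 to 14.3%) of other top clusters had a MEF Prrx1 summit. Among those without, it was 27% (19.6 to 36.0%) and 29.7% (24.0 to 36.2%), so within each kind the intervals of these shares overlapped. The shares take no account of length, and shared clusters with a coding TSS were longer (median 23.9 kb, against 16.8 kb). Per Mb, they held 4.35 MEF Prrx1 summits and other top clusters with a coding TSS 7.15, and without one the densities were 13.6 and 16.2. With summits within 2.5 kb of a TSS left out before stitching, the MEF difference was 0.0974 points (-4.63 to 4.95). In MMTV-CAFs the shares were 61.0% and 42.2% with a coding TSS and 75.7% and 49.5% without, and in wound fibroblasts 50.8% and 34.9%, and 64.9% and 36.3%, with no overlap of intervals.

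**Figure D4:**
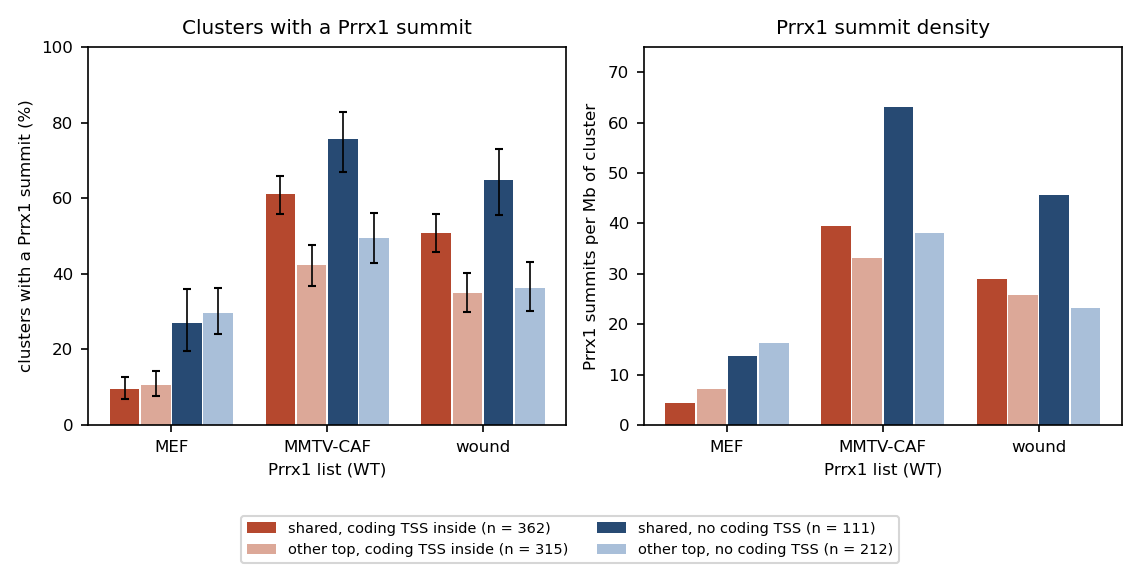
Share of MEF top 1000 clusters with a Prrx1 summit (left, %, bars with Wilson 95% intervals) and Prrx1 summits per Mb of cluster (right) in the 3 WT Prrx1 lists, for shared and other top clusters with and without a coding TSS. In MMTV-CAFs the 111 shared clusters without a coding TSS reach 75.7% and 63.1 summits per Mb, while in MEFs the left-hand intervals of shared and other clusters of the same kind overlap.

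Among shared clusters, the 111 without a coding TSS held more Prrx1 summits per Mb than the 362 with one, with 63.1 against 39.5 in MMTV-CAFs, 45.7 against 29.0 in wound fibroblasts and 13.6 against 4.35 in MEFs. Other top clusters without a coding TSS held 38.1, 23.2 and 16.2 in the same order. Of these 111, 54 lay in gene bodies and 57 outside coding genes, at a median of 46.5 kb from the nearest TSS. In the mutant MEF lists, 82.9% (74.8 to 88.8%) of the 111 stayed in the top 1000 in SG and 74.8% (66.0 to 81.9%) in KI, against 91.2% (87.8 to 93.7%) and 62.2% (57.1 to 67.0%) of the 362.

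Among named genes, Junb had 7 Prrx1 summits in wound fibroblasts, 1 in MMTV-CAFs and 0 in MEFs. Col1a1 had 3, 2 and 1 in this order, and Nfix 2, 1 and 0. The Tead1 cluster held 0 in all 3 types, and the Prrx1 cluster 2, 3 and 3. Myh9, nonmuscle myosin, had 7 in MMTV-CAFs, 1 in wound fibroblasts and 0 in MEFs. The Hoxb cluster held 1 in wound fibroblasts only.

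Whether clusters with Prrx1 summits kept their rank in the mutant cells differed between lists. In MEF KI 49 of 64 shared clusters with a MEF Prrx1 summit were in the top 1000 (76.6%, 64.9 to 85.3%), against 63.3% (58.6 to 67.9%) of the 409 without. In MEF SG it was 81.2% (70.0 to 88.9%) against 90.5% (87.2 to 92.9%). In MMTV-CAF SG it was 86.2% (81.9 to 89.6%) of 305 against 70.8% (63.6 to 77.2%) of 168, and in wound SG 83.6% of 256 against 83.4% of 217. Clusters with a Prrx1 summit were also longer and ranked higher in WT, with medians of 27.4 and 22.9 kb and ranks of 209 and 355 in MEFs. Only the MMTV-CAF intervals did not overlap, and the part of length and rank was not tested.

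Broad H3K4me3, taken as a region over 4 kb, is known from genes of cell identity. It overlapped 39.3% (35.0 to 43.8%) of the shared clusters in MEF WT, against 22.0% (18.7 to 25.7%) of the other top clusters and 30.2% of all 1000. In MMTV-CAF WT it was 73.4% (69.2 to 77.1%), against 42.5% and 57.1%, and in wound WT 41.2% (36.9 to 45.7%), against 19.4% and 29.7%. The lists held 987, 3002 and 949 such regions in this order. The 48 shared clusters with a transcription factor TSS had it in 62.5% (48.4 to 74.8%) in MEF WT, against 36.7% (32.3 to 41.4%) of the other 425. All 48 hold a coding TSS, and of the 314 other shared clusters with one it was 43.6% (38.3 to 49.2%), so that the intervals overlapped among clusters with a promoter. All 3 Hox clusters had it in each WT list.

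Clusters with and without a promoter were also taken apart. Among clusters with a coding TSS the MEF WT shares were 46.1% (41.1 to 51.3%) for shared and 33.0% (28.1 to 38.4%) for other top clusters, and among those without 17.1% (11.2 to 25.2%) and 5.66% (3.27 to 9.63%). With summits within 2.5 kb of a TSS left out before stitching, the difference between shared and other top clusters went from 17.3 to 6.56 points in MEF WT and from 21.9 to 7.40 in wound WT. The widest regions in WT MMTV-CAFs over all shared clusters were at Hoxc5 to Hoxc8 (28257 bases), in the cluster near Mirlet7c-2 (24082), at Plec (23890), Nr2f2 (23877), Smad7 (20400) and Nfix (20121). Plec, which encodes the linker protein plectin, is named to complete this order.

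In the mutant cells, the share of shared clusters with broad H3K4me3 was 31.5% in MEF SG, 12.7% in MEF KI and 66.4% in MMTV-CAF SG, all below WT, but 53.9% (49.4 to 58.4%) in wound SG, above WT. The same shares over all 1000 top clusters were 22.8%, 10.8%, 53.8% and 41.4%, and over the other top clusters 15.0%, 9.11%, 42.5% and 30.2%. Whole lists moved in the same directions, with 700 broad regions in MEF SG and 320 in MEF KI against 987 in MEF WT and 1679 in wound SG against 949 in WT. MMTV-CAFs had 2603 in SG and 3002 in WT. In MEF KI shared and other top clusters differed by 3.58 points (-0.286 to 7.53).

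**Figure D5:**
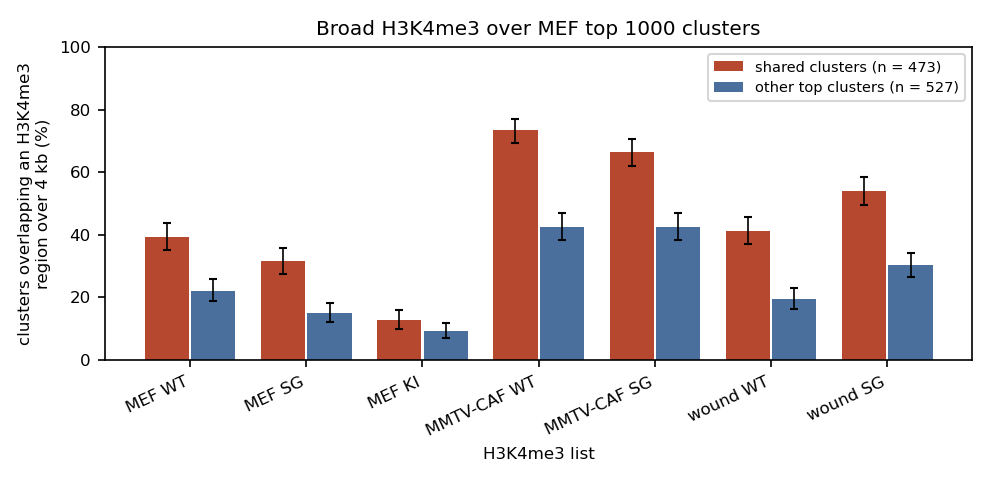
Share of MEF top 1000 clusters that overlap an H3K4me3 region over 4 kb (vertical axis, %, bars with Wilson 95% intervals) in the 7 H3K4me3 lists (horizontal axis), for 473 shared and 527 other top clusters. The shared clusters fall from 39.3% in MEF WT to 12.7% in MEF KI and rise from 41.2% in wound WT to 53.9% in wound SG.

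The fibroblast identity of the lists was checked at marker genes. Of 12 fibroblast markers 8 to 10 had an H3K27ac summit near the TSS in every list, Col1a1, Col1a2, Col3a1, Col5a2, Vim and Fn1 among them. Epithelial markers had it at 0 or 1 of 8, immune markers at 0 to 2 of the 6 annotated and endothelial markers at 0 or 1 of 6.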

How the data were processed

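ChIP-seq peak lists of 17 of the 24 samples were used. The other 7 samples are inputs. According to the methods, trimming used Trimmomatic, alignment to mm9 used Bowtie, Picard took out duplicates, and the authors called peaks against input with MACS2. For H3K27ac and Prrx1 the authors deposited the 1-bp summit of each peak and its −log10 p-value. Whether the duplicate Prrx1 ChIPs were pooled is not stated. The Prrx1 lists reach down to −log10 p-values of 3.00 to 3.05, below the stated cutoff of 5. Each H3K4me3 list gives broad regions, deposited with a score, a fold enrichment over input and −log10 p and q-values, of which only the positions were used. Read depth is unknown, so the numbers of summits stand in for it.

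Clusters, ranks and overlaps were computed with Python 3.11.15, numpy 2.4.6, pandas 2.3.3 and scipy 1.17.1, and figures were drawn with matplotlib 3.10.9. The steps were tested on simulated data. Genes came from GENCODE vM1 and sequences from NCBIM37, the assembly of mm9, with 0 list intervals beyond a chromosome end. Stitching at 12.5 kb approximates ROSE2, which ranks by reads. Ranks use the authors' −log10 p-values. Intervals of shares are Wilson 95% intervals, and those of differences combine them by Newcombe's method.

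Members, gene lists and tests were chosen with earlier results of these data known. Named items followed a rule: the 10 best and the 3 clusters on each side of the edge, up to 25 transcription factors, up to 4 genes per list, up to 12 microRNAs, the study's candidates, the 5 best common Prrx1 sites and 5 clusters per kind of loss. Other genes are named to complete a count, and some genes that the rule names are not reported here. MicroRNAs without a Mir name were left out. The splits by TSS and by transcription factor and the clusters of Ptgs1 and Gas7 were added after the values were seen.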

Additional observations from a re-analysis of the deposited data

Results flagged for a closer look

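Differences of 3 kinds changed sign between cell types or genotypes. With 1 library per group, none of them was tested. The share of clusters with a Prrx1 summit, shared minus other top clusters, was -4.69 points in MEFs, 19.3 in MMTV-CAFs and 18.6 in wound fibroblasts. The MEF value became 0.0974 with summits within 2.5 kb of a TSS left out, and its interval covered 0 in other alternatives given above.

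The share of shared clusters with H3K4me3 over 4 kb, mutant minus WT, was -7.82 points in MEF SG, -26.6 in MEF KI and -6.98 in MMTV-CAF SG but 12.7 in wound SG. The share of shared clusters in the top 1000 of the mutant list, those with minus those without a Prrx1 summit, was 15.4 points in MMTV-CAF SG, 13.2 in MEF KI and 0.184 in wound SG but -9.21 in MEF SG.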

How the results depend on the processing

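No paired analysis was possible because each group has 1 library, and for the same reason no library could be left out. Of 96 recomputed values for 12 results, 78 stayed within the interval given (counts within 1.5 times), 17 moved and 1 changed sign. Stitching within 5 kb gave 288 shared clusters and differences between shared and other top clusters of 27.3 points for rank in MEF SG, 41.7 for rank in wound SG and 24.4 for broad H3K4me3 in MMTV-CAFs. The top 500 gave 210 shared clusters, 12.4 points for Prrx1 in MMTV-CAFs, and 23.9 and 28.8 for broad H3K4me3 in MEFs and wound fibroblasts. Ranking by number of summits gave 37.8 points in MEF KI. Leaving out summits within 2.5 kb of a TSS gave 34.1 in MEF KI, 56.0 in wound SG, 6.56, 22.1 and 7.40 for broad H3K4me3 in MEFs, MMTV-CAFs and wound fibroblasts, 0.0649 for transcription factors and 0.0974 for Prrx1 in MEFs, the value that changed sign. Ranking the counterpart cluster of the same type gave 63.0 points in MMTV-CAF SG and 71.7 in wound SG. Both differences follow in part from the rule, and nothing further is read from them. Every shared cluster overlaps a top cluster of these types, while 264 of the other top clusters overlap none. Causes were not tested. Stitching within 5 kb and the top 500 kept 199 and 210 of the 473 shared clusters, and the other alternatives 240 to 434. Limits are the unknown depth, the missing replicates and ranks by p-value.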
